A study of Mus musculus with 24 samples.

Results

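Adiponectin receptors are the pair of proteins through which cells sense adiponectin, a hormone released by fat cells. Here their transcripts, Adipor1 and Adipor2, were followed over 24 h in the ventral tegmental area (VTA), the midbrain region whose dopamine neurons project to the reward circuit. The members were found by gene symbol in the annotation of the array, which gave 2 genes of 19938 genes with a probe set of their own and 2 probe sets of 35556, 1 for each receptor. The pair was chosen by the contrast of the early dark with the early light in these arrays, in which Adipor2 stood out, so that this contrast is a description for both receptors and was given no p.

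All mice were male, wild-type C57BL/6N, 10 to 12 weeks old, fed standard chow at will and kept in 12 h of light and 12 h of dark. Zeitgeber time (ZT) counts hours from lights on, so ZT0, ZT4 and ZT8 lie in the light, the rest phase of mice, and ZT12, ZT16 and ZT20 in the dark, their active phase. VTA tissue was punched from frozen brain slices of 4 mice at each of the 6 time points, and RNA of each mouse was hybridized to 1 array, 24 arrays in all. The sample labels give steps of 4 h and the written methods longer ones, and the labels were followed. The early dark is ZT12 and ZT16 (8 mice), the early light ZT0 and ZT4 (8 mice), the late dark ZT20 (4 mice) and the late light ZT8 (4 mice).

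AdipoR1 and AdipoR2 cross the membrane 7 times, with the opposite orientation to G protein-coupled receptors, and belong to the progestin and adipoQ receptor (PAQR) family. In mouse liver, signalling through AdipoR1 is tied mainly to the energy-sensing kinase AMPK and signalling through AdipoR2 mainly to the fatty acid-activated transcription factor PPAR-alpha. Both receptors also carry ceramidase activity, which turns ceramide into sphingosine, and in human cells AdipoR2 helps to keep membranes fluid when saturated fatty acids accumulate.

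In the GRCm38.p6 assembly of the mouse genome, Adipor1 lies on chromosome 1 from 134415378 to 134433351 and Adipor2 on chromosome 6 from 119353150 to 119417699. The 250 bases before a RefSeq start of each gene are shown because the levels of both genes were set side by side over the day. Capitals mark matches to the motifs searched, on either strand.
Adipor2, chr6:119388735-119388984, minus strand: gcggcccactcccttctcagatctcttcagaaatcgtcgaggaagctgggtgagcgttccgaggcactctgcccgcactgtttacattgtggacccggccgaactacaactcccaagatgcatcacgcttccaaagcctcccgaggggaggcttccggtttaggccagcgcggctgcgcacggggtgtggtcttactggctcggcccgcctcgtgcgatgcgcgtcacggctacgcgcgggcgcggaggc
Adipor1, chr1:134415128-134415377, plus strand: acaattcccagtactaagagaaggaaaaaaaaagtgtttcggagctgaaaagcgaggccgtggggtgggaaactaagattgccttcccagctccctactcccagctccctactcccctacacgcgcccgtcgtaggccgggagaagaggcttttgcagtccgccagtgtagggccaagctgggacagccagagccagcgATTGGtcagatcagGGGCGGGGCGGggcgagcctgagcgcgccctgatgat
The Adipor2 stretch held 27 CpG dinucleotides at 64.8% GC, and the Adipor1 stretch 15 CpG at 59.6% GC. Adipor1 has 2 starts in the RefSeq table, and the stretch before the second start, not printed, held 33 CpG at 79.2% GC. These values stand against a median of 6 CpG and 52.4% GC over 32851 promoter stretches of the same length. The Adipor2 stretch had no match to any of the 8 motifs searched. These were the E-box CACGTG (present in 6.02% of all stretches), the D-box TTANGTAA (2.06%), the ROR element (0.177%), the glucocorticoid response element (0.00913%), the PPAR response element (0.0335%), the cAMP response element TGACGTCA (1.55%), the CCAAT box CCAAT (33.8%) and the GC box GGGCGG (32.7%). The Adipor1 stretch shown had 1 CCAAT box, read on the opposite strand, and 2 overlapping GC boxes, and the stretch before the second start had 2 GC boxes. A match says only that these letters stand there, and the Adipor2 start lies inside the span of the gene, which RefSeq extends further upstream.

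Values are log2 expression from RMA (robust multi-array average), a scale on which a difference of 1 is a doubling and which has no zero level. Array medians over all transcripts ranged from 6.71 to 6.79, and pairs of arrays correlated at 0.962 to 0.995 across transcripts. ZT0 replicate 4 stood furthest from the others, with a median correlation of 0.970 where the next lowest array had 0.988. Mean values of the 8 dopamine neuron markers ran from 5.94 (Foxa1) to 8.48 (the dopamine transporter Slc6a3). Tyrosine hydroxylase (Th) had 7.76, and Foxa1 and En1 (6.68) lay below every array median. No other tissue was on the arrays for comparison. A punch mixes neurons, glia and vessels, so that fewer cells of a type and less RNA per cell cannot be told apart.

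Adipor2 was low through the light and higher through the dark. At ZT0 the 4 mice had log2 values of 7.40, 7.34, 7.26 and 7.14, with a mean of 7.29 ± 0.11 (SD). At ZT4 they had 7.08, 6.91, 7.07 and 7.24, the lowest mean of the day at 7.07 ± 0.13. At ZT8 the values were 7.33, 7.47, 7.30 and 6.95 (7.26 ± 0.22), with replicate 4 well below the other 3 mice. The values at ZT12, at lights off, were 7.62, 8.11, 7.54 and 7.67, the highest mean at 7.73 ± 0.25, and replicate 2 stood above every other mouse of the study. At ZT16 they were 7.42, 7.56, 7.68 and 7.42 (7.52 ± 0.12), and at ZT20 they were 7.70, 7.53, 7.42 and 7.49 (7.53 ± 0.12). From highest to lowest the means ran ZT12, ZT20, ZT16, ZT0, ZT8 and ZT4, and spanned 0.66 on the log2 scale, a 1.58-fold range. Only the step between ZT16 and ZT0, the border between the dark and the light time points, exceeded the larger SD of its neighbours (0.23 against an SD of 0.12). The other neighbours differed by 0.02 to 0.20, within their spread.

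Adipor1 kept within a much narrower range. Its 4 mice had 8.30, 8.33, 8.26 and 8.47 at ZT0 (8.34 ± 0.09), and 8.25, 8.26, 8.29 and 8.46 at ZT4 (8.32 ± 0.10). They had 8.27, 8.44, 8.34 and 8.18 at ZT8 (8.30 ± 0.11), and 8.29, 8.34, 8.27 and 8.29 at ZT12 (8.30 ± 0.03). At ZT16 the values were 8.12, 8.27, 8.20 and 8.11 (8.18 ± 0.07), and at ZT20 8.20, 8.35, 8.29 and 8.11 (8.24 ± 0.10). The means ran ZT0, ZT4, ZT8, ZT12, ZT20 and ZT16 from highest to lowest, and no step between neighbours exceeded the larger SD of the pair. They spanned 0.16, a 1.12-fold range, where the SD pooled over time points was 0.09 for Adipor1 and 0.17 for Adipor2.

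**Figure D1:**
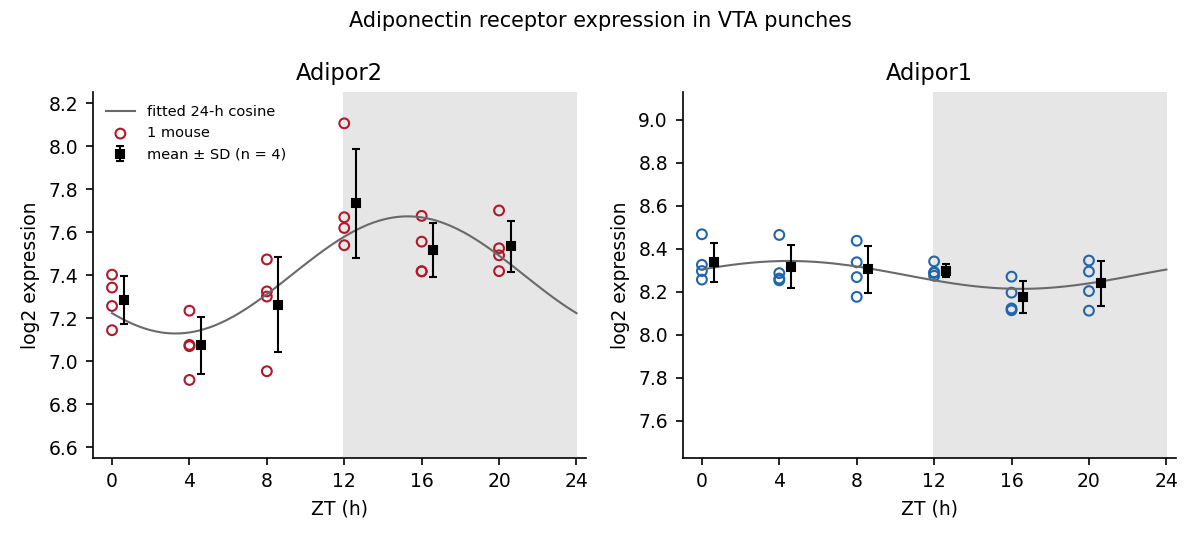
Log2 expression of Adipor2 (left) and Adipor1 (right) against ZT in hours, with 1 open circle per mouse, the mean ± SD of 4 mice as a square and the fitted 24-h cosine as a line, and with the dark phase in grey. Both panels cover the same range of log2 units around different levels. The Adipor2 means spanned 0.66 and the Adipor1 means 0.16.

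In the contrast by which Adipor2 was chosen, its 8 early dark mice had a lowest value of 7.42, a median of 7.59 and a highest value of 8.11, against 6.91, 7.19 and 7.40 in the 8 early light mice. Every early dark mouse lay above every early light mouse, though the groups were only 0.015 apart at their nearest points and overlapped once arrays were centred on their medians (-0.044 in place of 0.015). The means were 7.63 ± 0.22 in the early dark and 7.18 ± 0.16 in the early light (SD, n = 8 each), a difference of 0.45 (standard error 0.08, 95% interval 0.28 to 0.61) or 1.36-fold (1.22 to 1.52). In the values as deposited, complete separation in this direction was seen for 12 of 23410 transcripts tested (0.0513%), Adipor2 included, and a difference at least this large for 6 transcripts (0.0256%). These shares describe how the gene was picked and carry no further weight.

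For Adipor1 the early dark mice had a lowest value of 8.11, a median of 8.27 and a highest value of 8.34, against 8.25, 8.29 and 8.47 in the early light mice. The groups overlapped and the difference was of the opposite sign, -0.09 (standard error 0.05, 95% interval -0.20 to 0.02). A value at or below this one was found for 13.4% of all transcripts. In each array the Adipor2 value was also set against the Adipor1 value of the same mouse. That difference lay between -0.73 and -0.24 in the early dark (mean -0.61 ± 0.17) and between -1.35 and -0.89 in the early light (mean -1.15 ± 0.17), without overlap. These are the mice by which Adipor2 was chosen, and the share of other gene pairs without overlap was not computed. Since probe sets differ in their response, only the change of this difference between groups can be read, not its sign.

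A cosine with a period of 24 h, fitted to all arrays as a description, was highest for Adipor2 at ZT 15.3, known to a standard error of 0.71 h. From trough to peak the Adipor2 curve covered 0.54 (standard error 0.10) or 1.46-fold. The Adipor1 curve was highest at ZT 4.48, known to 1.73 h, and covered 0.13 (standard error 0.06) or 1.09-fold. Adding 12-h terms moved the fitted peak of Adipor2 to ZT 12.6, the time point with its highest mean, and that of Adipor1 to ZT 0.7.

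The late time points had no part in the contrast by which Adipor2 was picked, although they enter the 24-h curve, and so allow a test of the same question later in each phase. Adipor2 averaged 7.53 ± 0.12 at ZT20 and 7.26 ± 0.22 at ZT8 (SD, n = 4 each), a difference of 0.27 (standard error 0.11, 95% interval 0.04 to 0.50) or 1.21-fold. Of the ZT20 mice, 3 of 4 lay above all ZT8 mice. The difference did not pass the threshold over all transcripts (limma, p = 0.0227, adjusted p = 0.999), nor did an exact two-sided permutation test over the 8 arrays (p = 0.0571, where 0.0286 is the smallest p the design allows). Over all transcripts 1 passed the adjusted threshold of 0.05 in this contrast (0.00427%), 4.28% had an unadjusted p under 0.05, and 0.688% had a difference as large as that of Adipor2 or larger. Without ZT8 replicate 4, the lowest of that group, the Adipor2 difference was 0.17.

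Adipor1 averaged 8.24 ± 0.10 at ZT20 and 8.30 ± 0.11 at ZT8, with overlapping groups and a difference of -0.07 (standard error 0.07, 95% interval -0.22 to 0.08, limma, adjusted p = 0.999, exact permutation p = 0.457). It was -0.11 without ZT8 replicate 4 and -0.02 without ZT8 replicate 2. The within-array difference of Adipor2 and Adipor1 was between -0.87 and -0.50 at ZT20 (mean -0.70 ± 0.17) and between -1.22 and -0.94 at ZT8 (mean -1.04 ± 0.13). It was higher by 0.34 at ZT20, with 4 of 4 late dark mice above all late light mice. How many other gene pairs separate these groups was not computed. The within-array difference was added as a measure after the data were seen, so that its p is a description only. The exact two-sided permutation test gave p = 0.0286, the smallest possible with 70 assignments of the arrays. After Benjamini-Hochberg adjustment over the 3 tests of this kind it was 0.0857. A p of 0.0286 in 1 of the 3 tests cannot pass the threshold after this adjustment unless another test also gives a small p. The adjusted value missed the threshold and so does not decide whether the receptors differ in the late contrast.

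Within the phases ZT16 was tested against ZT12 and ZT4 against ZT0, and neither receptor passed the threshold in these steps. Adipor2 averaged 7.52 at ZT16 and 7.73 at ZT12, a difference of -0.22 (standard error 0.11, 95% interval -0.45 to 0.01, limma, unadjusted p = 0.0640, adjusted p = 0.9999). This rested largely on the high ZT12 replicate 2, without which it was -0.09. In the light Adipor2 averaged 7.07 at ZT4 and 7.29 at ZT0, a difference of -0.21 (standard error 0.11, 95% interval -0.44 to 0.02, limma, unadjusted p = 0.0684, adjusted p = 0.9998). Adipor1 averaged 8.18 at ZT16 and 8.30 at ZT12 (difference -0.12, 95% interval -0.27 to 0.03), and 8.32 at ZT4 and 8.34 at ZT0 (difference -0.02, 95% interval -0.17 to 0.13), with adjusted p values of 0.9999 and 0.9998 by limma. No transcript passed the adjusted threshold in either of these steps by limma, with 4.57% at an unadjusted p under 0.05 between ZT16 and ZT12 and 2.46% between ZT4 and ZT0.

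No relation between the receptors was detectable across the 24 mice. Pearson's r between Adipor2 and Adipor1 was -0.04 (permutation p = 0.860) and Spearman's rho -0.0043 (permutation p = 0.985). Without ZT0 replicate 4 and ZT4 replicate 4, the arrays furthest from the median of Adipor1, r was 0.14 (permutation p = 0.537). After the mean of each time point was taken off, r was 0.41 (permutation p = 0.0476) and rho 0.36 (permutation p = 0.0841), mice with more of one receptor tending to have more of the other. Adjusted over the 3 relations computed, these became 0.143 and 0.252 and missed the threshold. The permutations moved deviations freely across time points, although those of a time point cancel out. This tends to make the p of this relation too small, also before adjustment. The arrays share 1 normalization, whose part in this relation was not tested.

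**Figure D2:**
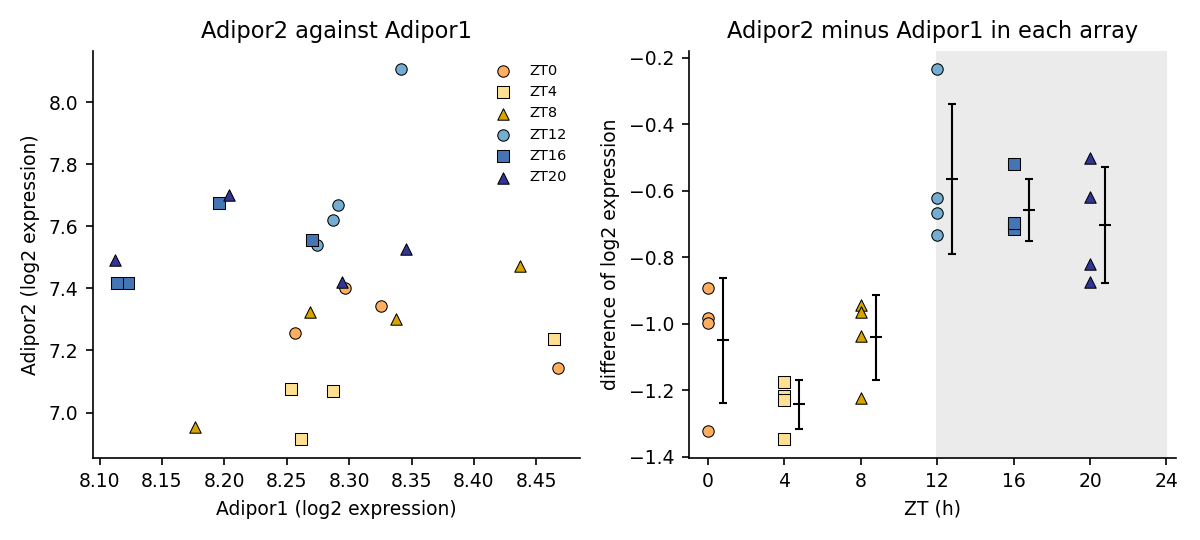
Adipor2 against Adipor1 in log2 expression, 1 symbol per mouse with time points by colour and shape (left), and the within-array difference Adipor2 minus Adipor1 against ZT in hours, with bars for the mean ± SD of 4 mice and the dark phase in grey (right). Most dark mice lie above most light mice along the Adipor2 axis, with overlap between ZT8 replicate 2 at 7.47 and the lowest dark mice at 7.42. The within-array differences of all 12 dark mice lie above those of all 12 light mice, the nearest being -0.87 in the dark and -0.89 in the light. These include the early dark and early light mice by which Adipor2 was chosen. The measure was added after the data were seen, and the share of other gene pairs with this separation was not computed.

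All 9 other members of the PAQR family were measured. None passed the adjusted threshold in the early dark against the early light, in which 0.0342% of all transcripts passed (limma, 8 of 23410) and 10.2% had an unadjusted p under 0.05. Their differences ran from -0.10 to 0.12, with 3 above 0, 6 below and a median of -0.01, against 0.0055 over all transcripts. Mmd, named for its rise as monocytes turn into macrophages, averaged 6.90 ± 0.11 in the early dark and 6.77 ± 0.11 in the early light (SD, n = 8 each), a difference of 0.12 (limma, unadjusted p = 0.0456, adjusted p = 0.476). Its close relative Mmd2 averaged 7.97 ± 0.11 in the early dark and 8.07 ± 0.06 in the early light, a difference of -0.10 (limma, adjusted p = 0.519). The Golgi protein Paqr3, which holds the kinase Raf-1 at the Golgi, had a difference of -0.09. Among the membrane progestin receptors, Paqr5 had -0.09, Paqr6 0.08, Paqr7 -0.01, Paqr8 0.0068 and Paqr9 -0.02, and Paqr4 had -0.01. All of these have 95% intervals that include 0, apart from Mmd (0.0026 to 0.24).

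The ligands and the adaptors were measured in the same punches. Adiponectin itself (Adipoq), which fat cells make, averaged 6.07 ± 0.17 in the early dark and 6.20 ± 0.21 in the early light, a difference of -0.12 (95% interval -0.29 to 0.04). C1qtnf9, a secreted relative of adiponectin, had a difference of 0.10 (95% interval -0.06 to 0.27). Over all arrays Adipoq averaged 6.18 and C1qtnf9 5.99, both below the lowest array median of 6.71. Whether either transcript was present above background was not tested. T-cadherin (Cdh13), which binds adiponectin at the cell surface, had a difference of 0.05 (95% interval -0.05 to 0.15). In the late dark against the late light the 3 differences were 0.18 for Adipoq, 0.16 for C1qtnf9 and 0.09 for Cdh13, none past the threshold (limma, adjusted p of 0.999 or above for each). Of 5 adaptors and partners, 2 had a probe set of a single gene in use. Appl1, the adaptor that binds the inner part of both receptors, had a difference of 0.05 (95% interval -0.11 to 0.22), and Txndc5, a partner of AdipoR1 in the endoplasmic reticulum, -0.02 (95% interval -0.16 to 0.12).

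Downstream of the receptors, none of the genes measured passed the adjusted threshold in any of the 4 contrasts or in the 24-h fit. In the AMPK list (15 of 16 measured) the early differences had a median of 0.03, with 10 above 0 and 5 below. The deacetylase Sirt1 averaged 6.40 ± 0.09 in the early dark and 6.25 ± 0.15 in the early light, a difference of 0.15 (limma, adjusted p = 0.520). Strada, the pseudokinase that activates the AMPK kinase LKB1, had -0.09, and the AMPK gamma subunit Prkag3 -0.10.

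In the PPAR-alpha list (10 of 14 measured) 8 differences were above 0 and 2 below, with a median of 0.03. Pdk4, a PPAR-alpha target that shuts glucose carbon out of the mitochondrial cycle, averaged 6.64 ± 0.08 in the early dark and 6.48 ± 0.15 in the early light, a difference of 0.17 (limma, unadjusted p = 0.0260, adjusted p = 0.419). Cpt1a, the gate of fatty acid entry into mitochondria, averaged 7.0 ± 0.06 in the early dark and 6.88 ± 0.11 in the early light, a difference of 0.13 (limma, unadjusted p = 0.0385, adjusted p = 0.454). The fatty acid oxidation enzyme Acadvl had -0.07.

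Among enzymes of ceramide and sphingosine (15 of 16 measured) the median difference was 0.01, with 8 above 0 and 7 below. Sphk1, which phosphorylates the sphingosine that ceramidases release, averaged 6.79 ± 0.12 in the early dark and 6.92 ± 0.07 in the early light, a difference of -0.13 (limma, unadjusted p = 0.0211, adjusted p = 0.4003). The neutral ceramidase Asah2 had 0.10 and the sphingosine-1-phosphate lyase Sgpl1 0.07. All 12 genes of membrane fatty acid composition were measured, with 6 above 0 and 6 below. The fatty acid elongase Elovl6 averaged 8.68 ± 0.13 in the early dark and 8.85 ± 0.14 in the early light, a difference of -0.17 (limma, unadjusted p = 0.0116, adjusted p = 0.343), the smallest adjusted p among the 66 genes. Elovl5, which elongates polyunsaturated fatty acids, had -0.10, and Acsl4, which activates arachidonic acid, 0.10.

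Over the 66 genes measured of 75 listed, the early differences ran from -0.17 to 0.17 with a median of 0.01, against 0.0055 over all transcripts. An unadjusted p under 0.05 was found for 3 genes in the higher direction (Mmd, Pdk4 and Cpt1a) and 2 in the lower (Sphk1 and Elovl6), where 5.52% of all transcripts had one in the higher and 4.67% in the lower direction. None of the 66 had one in the late contrast or between ZT4 and ZT0. Between ZT16 and ZT12, 2 had one, Paqr3 at 0.19 and Cpt2, an enzyme of the mitochondrial fatty acid shuttle named here after its value was seen, at -0.23 (limma, adjusted p = 0.9999 for both). In the 24-h fit 3 of the 66 had an unadjusted p under 0.05 (Mmd2, Pdk4 and Elovl6), against 8.91% of all transcripts, and 0.0299% of all transcripts passed the adjusted threshold. Over all arrays Prkag3 averaged 6.16, Sirt1 6.30, Pdk4 6.55 and Cpt2 6.60, below the lowest array median of 6.71. Whether these transcripts were present above background was not tested.

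**Figure D3:**
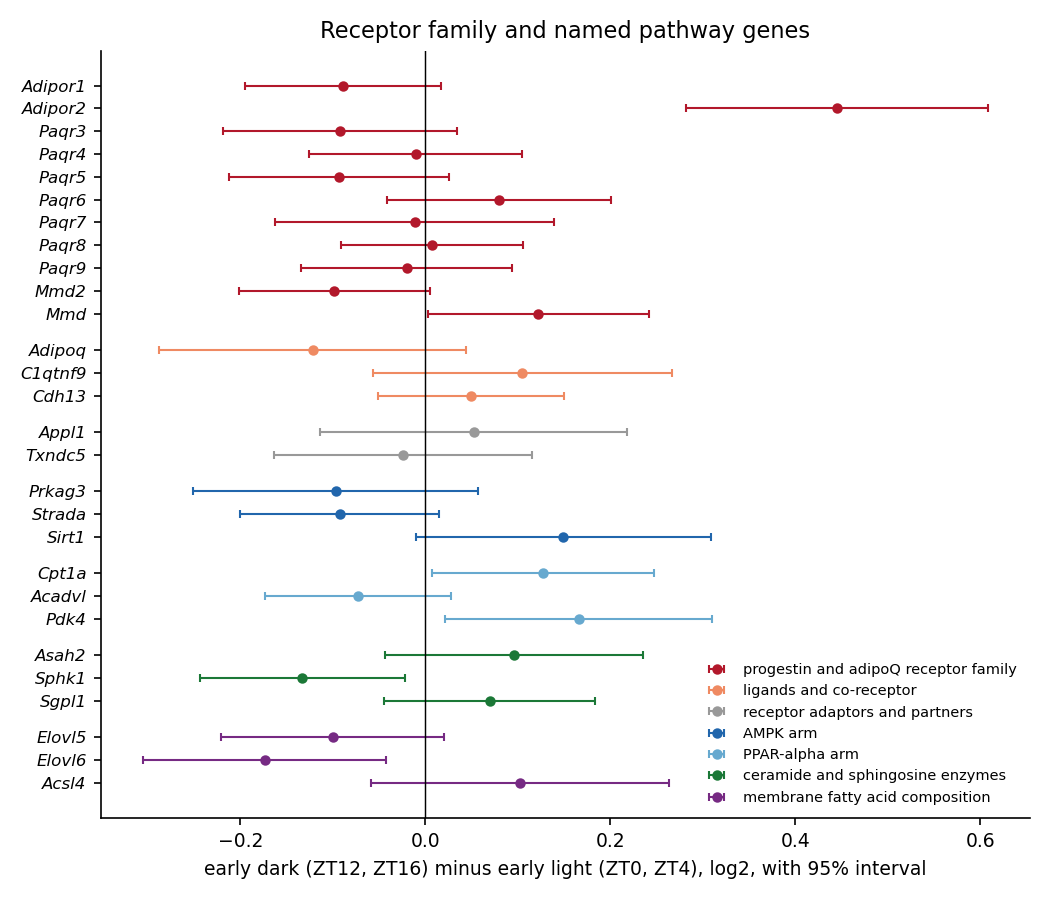
Difference between early dark and early light in log2 units with its 95% interval, for the PAQR family, the ligands, the adaptors and the 3 genes with the smallest p of each other list, coloured by list. Adipor2 at 0.45 lies apart from the other 27 genes, which run from -0.17 to 0.17, and it was chosen for this difference.

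The summed signal of each list of cell type markers differed by at most 0.06 between the same groups. The log2 of the summed signal of the 8 dopamine neuron markers ranged from 10.5 to 10.9 in the early dark and from 10.4 to 10.9 in the early light, a difference in means of 0.03. The 6 microglia markers ranged from 9.30 to 9.45 in the early dark and from 9.32 to 9.55 in the early light, a difference of -0.06, with 5 of 6 lower in the early dark. The remaining marker, P2ry12, was higher by 0.15. Cx3cr1 and Aif1 each differed by -0.14 (limma, unadjusted p = 0.0395 and 0.0400, adjusted p = 0.457 for both). The 6 endothelial and mural markers ranged from 10.2 to 10.3 in the early dark and from 10.1 to 10.4 in the early light, also a difference of -0.06 with 5 of 6 lower. Among these 6, Cldn5 alone differed by -0.22 (limma, unadjusted p = 0.00145, adjusted p = 0.226), more than the sum. The lists for GABA neurons (3 of 3 measured), glutamate neurons (2 of 2), astrocytes (6 of 6), oligodendrocytes (5 of 6), ependymal cells and choroid plexus (5 of 5) and red blood cells (1 of 4) differed by -0.04 to 0.03. Between the late dark and the late light all 9 lists differed by -0.11 to 0.09. Single markers could differ more than their sum. Of the oligodendrocyte markers, Mog was lower in the late dark by -0.26 and Mag by -0.18 (limma, unadjusted p = 0.00122 and 0.0214). The other differences of this list were also below 0 but small, at -0.05 for Cnp, -0.03 for Mbp and -0.0004 for Mobp. None of the marker genes passed the adjusted threshold in this contrast, and the part of any cell type in the Adipor2 values was not tested.

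Among 19937 other genes, those whose values ran most closely with Adipor2 over the 24 arrays were Cpm, a membrane-bound carboxypeptidase (r = 0.81), Rrp8, a nucleolar methyltransferase (0.79), the tyrosine phosphatase Ptpn11 (0.78), Wipf2, an actin regulator (0.76), and Cab39l (0.76). Their early dark minus early light differences, from 0.15 to 0.20, were less than 0.45, the value of Adipor2. Their correlation with Adipor2 after time point means were taken off was 0.58 to 0.77, a range that the choice of the genes on the same arrays favours. The lowest values were those of Mir679 (r = -0.77), 1700013G24Rik (-0.77) and Mir297b (-0.73), with differences of -0.35, -0.25 and -0.47.

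The genes closest to Adipor1 were other ones: Cct7, a subunit of the cytosolic chaperonin (r = 0.82), the prion protein gene Prnp (0.78), Tspan3, a tetraspanin (0.78), Prkar1a, a regulatory subunit of protein kinase A (0.77), and Coq2, an enzyme of ubiquinone synthesis (0.76). Their early differences were -0.11 to -0.08 for Cct7, Prnp, Tspan3 and Prkar1a and -0.01 for Coq2, where Adipor1 had -0.09. Map3k15 (r = -0.75), Cox20 (-0.74) and Zc3h8 (-0.73) had the lowest correlations. These values were ranked over all genes on shared arrays and are given as a description.

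**Figure D4:**
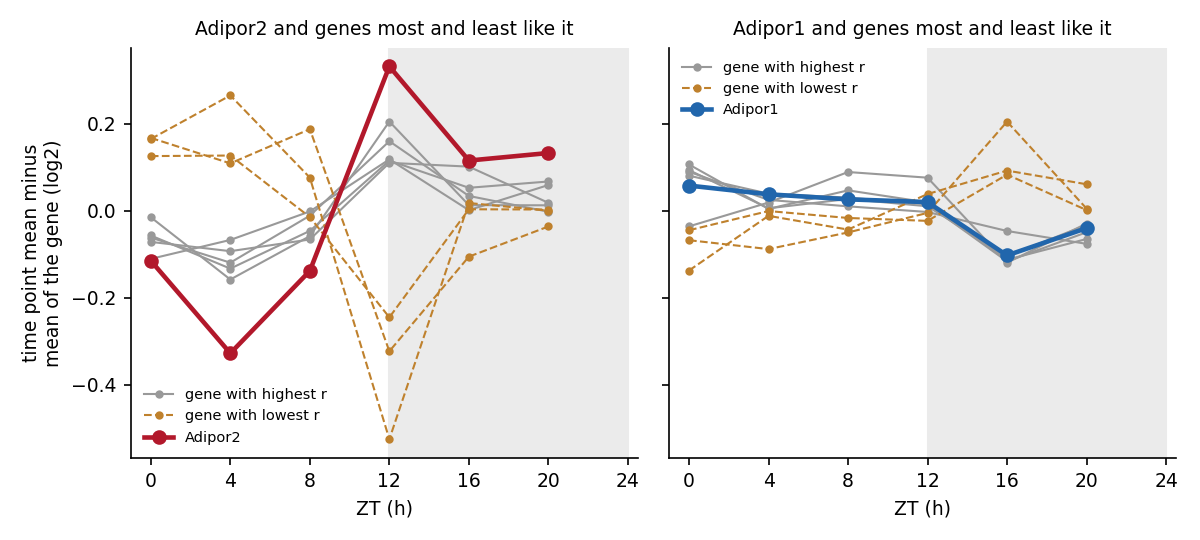
Time point means minus the gene's mean over 24 arrays, in log2 units, against ZT in hours, for Adipor2 (left) and Adipor1 (right) with the 5 genes of highest r in grey and the 3 of lowest r as dashed lines. The grey genes at left share the step up at ZT12 at a smaller size than Adipor2, and those at right share the narrow range of Adipor1, mostly with the low mean at ZT16.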

How the data were processed

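Punches of the VTA of 24 mice were hybridized to 1 GeneChip Mouse Gene 1.0 ST array each. The deposited table holds log2 values, which the authors computed with RMA (background correction, quantile normalization and median polish) in R 2.13.1, per the submitters' processing notes. Scan dates and batches are not given in the sources used here, and depth has no meaning for arrays, so that the number of mice limits the precision. No column was left without a sample (0). The methods normalize to the average of each gene and use CircWave, which was not installed and was replaced by a cosine fit.

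Of 35556 probe sets, 23410 with a gene in the annotation were tested as transcripts (21789 with 1 gene, 1621 with several), and 12146 have none. Names of 21698 were updated through the RefSeq table of GRCm38.p6, which also gave coordinates and promoter sequences. The probe set with the highest mean stood for a gene. Differences were estimated with limma 3.58.1 in R 4.3.3, with the 6 time points as groups and 1 shared spread, and rhythms on the cosine and sine of a 24-h period with a moderated F-test. P values were adjusted by Benjamini-Hochberg over all transcripts, with a threshold of 0.05. Correlations were tested with 100000 permutations and single differences of 4 against 4 arrays with exact permutation tests, all two-sided. Both fits were tested on simulated data, for the early contrast and the 24-h rhythm only. The late contrast and the steps within the phases were not simulated. Plots were drawn with matplotlib 3.10.9 in Python 3.11.15.

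The text names both receptors, every measured gene of the receptor family, ligand and adaptor lists, the 3 genes with the smallest p in each other list, and for each receptor the 5 genes of highest and 3 of lowest Pearson's r. The members, the lists and the tests were chosen with earlier results of these data known. Alternatives were a replicate block, a further quantile normalization, array medians set equal, weights per array, a robust, trended eBayes fit, every probe set tested, only the brighter transcripts (above the median), only the arrays compared, linear values divided by the mean of the transcript, 12-h terms and leaving out each array in turn. The within-array difference of the receptors and the gap between groups were added after the data were seen.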

Additional observations from a re-analysis of the deposited data

Results flagged for a closer look

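Adipor1 at ZT4 held 1 mouse that stood apart from the other 3. Replicate 4 had 8.46, where the others had 8.25, 8.26 and 8.29, and its gap to the nearest of them was 0.841 of the range of the group, above Dixon's critical value for 4 samples. Chance alone marks about 5% of groups in this way, and 12 groups (2 receptors at 6 time points) were examined. The array of that mouse was also the one that ZT0 replicate 4 correlated with best (0.983), and ZT0 replicate 4 had the highest Adipor1 value of the study, 8.47. Without ZT4 replicate 4 the early dark minus early light difference of Adipor1 was -0.06.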

How the results depend on the processing

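Over 11 other settings, 107 of 121 values counted as unchanged. Tested differences had to keep their direction and side of the threshold, and the correlation and the gap their direction. Counts could change by a limited factor, and untested differences and the 24-h fits by less than their SD or standard error. Unchanged were all values of Adipor2 in the early and late contrasts (0.43 to 0.45 and 0.25 to 0.29) and the count of 0 list genes called. The gap of 0.015 between the lowest early dark and the highest early light array of Adipor2 was -0.044 after centring on array medians, so that the groups then overlapped, and stayed above 0 (0.02 to 0.07) when any 1 array was left out. The ZT4 minus ZT0 difference of Adipor1 was 0.0033 with array weights and -0.069 to 0.024 with 1 array left out. With 12-h terms the fitted peaks were ZT 0.7 for Adipor1 and ZT 12.6 for Adipor2, and the Adipor2 curve covered 0.67. With 1 array left out, the Adipor2 difference ran from 0.38 to 0.48 in the early and from 0.17 to 0.34 in the late contrast, and the correlation of the receptors from -0.14 to 0.053.

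Counts over all transcripts depended more on the setting. The 8 called in the early contrast became 14 with a replicate block, 16 after a further quantile normalization, 2 over all probe sets and 14 above the median level, and 2 to 134 with 1 array left out (134 without ZT0 replicate 2). The 1 called in the late contrast became 0 with a replicate block, after quantile normalization and over all probe sets, and 0 to 1 with 1 array left out. The 7 rhythmic transcripts became 19 after quantile normalization, 4 over all probe sets and 4 to 12 with 1 array left out. Causes were not tested. Whether replicate numbers pair the mice was described but not tested. In deviations from time point means, arrays of the same number correlated at a mean of 0.03 (60 pairs, -0.30 to 0.58). Arrays of other numbers correlated at a mean of -0.01 (180 pairs, -0.50 to 0.33), and 8 of 24 arrays were closest to their own number. With 4 replicate numbers, some arrays fall closest to their own number by chance alone. The replicate block changed no call for the receptors. The comparison of several probe sets of a gene was not run, since each receptor has 1.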
